A study of Mus musculus with 6 samples.

Results

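The genes examined here were the macrophage growth factors Csf1 and Il34, the receptor genes Csf1r, Csf2ra, Csf2rb and Csf3r, the myeloid transcription factor genes Spi1 and Irf8, and the macrophage surface marker gene Adgre1. These 9 genes were chosen by name and looked up among the 14016 rows of the deposited table. Of them, 8 were listed under their current symbol, and Adgre1 was listed under its older symbol Emr1. The table came from bulk RNA sequencing of quadriceps muscle 7 days after volumetric muscle loss, a surgical injury that removes a part of the muscle, in mice that received no implant. The samples were 3 WT mice (C57BL/6) and 3 GATA-1 mutant mice. The latter, named ΔdblGATA mice in the study, lack eosinophils because a regulatory site of Gata1, a transcription factor gene of blood lineages, is deleted. The methods describe the surgery in female C57BL/6 WT mice and do not give the sex of the GATA-1 mutant mice. Both genotypes shared the same injury without ECM, for which the methods describe a saline fill of the defect.

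CSF1 and IL-34 are secreted growth factors that bind the same receptor, CSF1R, a tyrosine kinase on monocytes and macrophages that maintains their survival and proliferation. GM-CSF, G-CSF and the interleukins IL-3 and IL-5 act on myeloid cells through receptors of the cytokine receptor family, of which CSF2RA, CSF2RB and CSF3R are chains. PU.1, encoded by Spi1, and IRF8 are transcription factors of the monocyte and macrophage lineage, and PU.1 is known to drive transcription of Csf1r. Injured muscle recruits monocytes, which become macrophages that clear debris and take part in regeneration.

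The values given are the authors' mean log2 CPM, where CPM is a count scaled to the size of its library. The authors also normalized these values between libraries by the trimmed mean of M-values (TMM). The mean was taken by the authors over the samples of their fit. Each gene therefore has 1 value with no spread, the depth of each library is unknown, and no difference between genes was tested. Values per mouse were not analysed here, so WT and GATA-1 mutant mice are not compared. In bulk tissue, fewer cells of a type and less RNA per cell cannot be told apart. CPM is not corrected for the length of a transcript. Genes are therefore ranked and compared on a level per kilobase, for which the authors' mean was divided by the length of the longest coding transcript in GENCODE M21, on the log2 scale, and the authors' mean of a gene is given as its deposited value.

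Per kilobase of the longest coding transcript, Csf1r had the highest level of the 9 genes and Csf3r the lowest. Csf1r stood at 3.92 log2 CPM per kilobase and ranked 3202 from the top among 13941 genes with a known length. Its authors' mean was 6.15 log2 CPM, equal to a geometric mean of 71.2 CPM. Csf3r stood at -0.04 log2 CPM per kilobase, and its authors' mean was 1.76 log2 CPM, or 3.38 CPM. The median over all genes was 2.28 log2 CPM per kilobase. Above it lay 6 of the 9 genes, namely Csf1r, Spi1, Adgre1, Irf8, Csf1 and Csf2ra, and below it lay Il34, Csf2rb and Csf3r. Csf2ra changed side with the scale, since its authors' mean of 3.39 log2 CPM was under the median of 4.03 log2 CPM without correction for length. With the median length of coding transcripts in place of the longest, Spi1 at 5.00 was above Csf1r at 4.94 log2 CPM per kilobase.

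**Figure D1:**
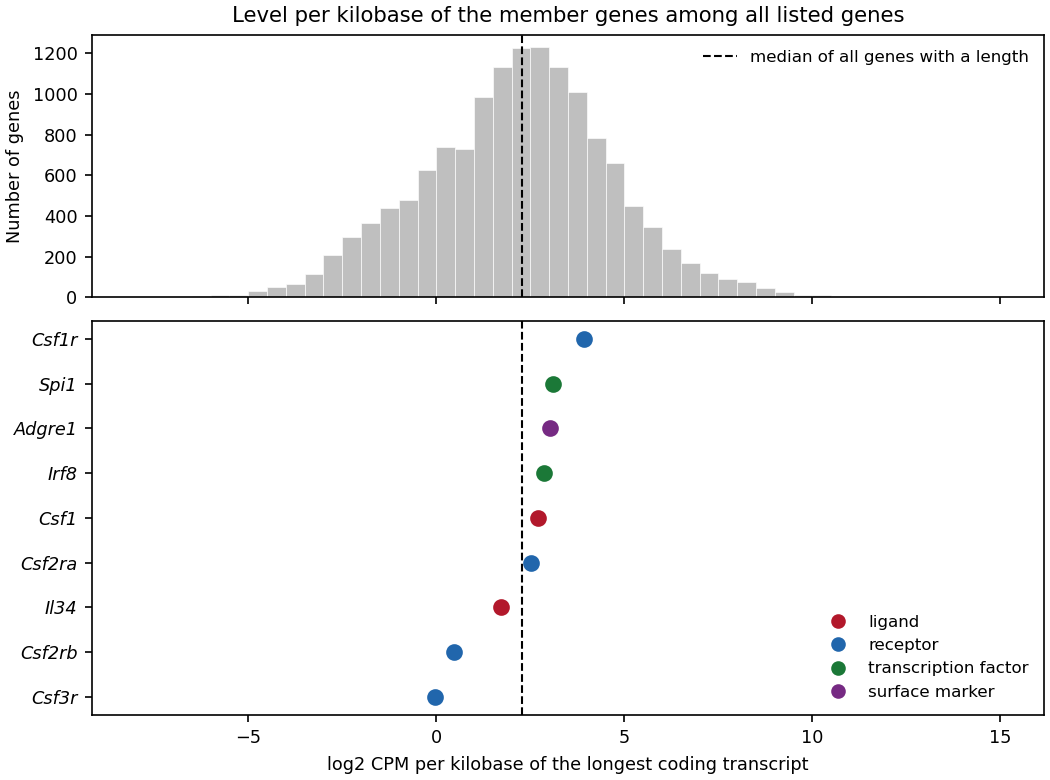
The upper panel is a histogram of the level per kilobase (horizontal axis, log2 CPM per kilobase of the longest coding transcript) of all genes with a known length, as the number of genes (vertical axis), and the lower panel gives the level of each of the 9 genes on the same axis, coloured by role. The dashed line is the median of all genes, 2.28, and the points run from -0.04 for Csf3r to 3.92 for Csf1r.

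The ligands of the CSF1 receptor were both listed, with Csf1 the higher per kilobase. The authors' mean for Csf1 was 4.76 log2 CPM, and that for Il34 was 2.58 log2 CPM. Csf1 stood at 2.70 log2 CPM per kilobase, at the 57.3 percentile of all genes, and Il34 at 1.73, at the 40.8 percentile, so Csf1 was 1.95-fold higher. This ratio depends on the annotation, because the 6 coding transcripts of Csf1 run from 773 to 4176 nt, while the 2 of Il34 are 1709 and 1796 nt long. Over the 4 lengths tried, Csf1 was between 1.81-fold and 5.42-fold higher than Il34. Sdc1, a proteoglycan gene whose product is a further receptor described for IL-34, stood at 2.88 log2 CPM per kilobase, while Ptprz1, which encodes another, was not listed.

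Csf1r, the receptor gene of both ligands, exceeded them per kilobase under each length tried, and exceeded every other member under 3 of the 4 lengths, the exception being Spi1 under the median length. With its longest coding transcript of 4701 nt, it was 2.34-fold above Csf1 and 4.56-fold above Il34. Under the other lengths, its ratio over Csf1 lay between 1.49-fold and 2.34-fold and its difference from Il34 between 1.42 and 3.17 log2 units.

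Receptor genes for the other colony-stimulating factors were lower per kilobase. Csf2ra, which encodes the GM-CSF-binding chain, had an authors' mean of 3.39 log2 CPM and a level of 2.50 log2 CPM per kilobase. Csf2rb, which encodes the signalling chain shared by the receptors of GM-CSF, IL-3 and IL-5, had an authors' mean of 2.77 log2 CPM and a level of 0.48 log2 CPM per kilobase. The chain genes of the GM-CSF receptor thus differed 4.07-fold per kilobase, with Csf2ra the higher, and 1.77-fold under the length that gave the smallest ratio. Csf3r, the gene for the G-CSF receptor of the neutrophil lineage, stood at -0.04 log2 CPM per kilobase, and Csf1r was 15.6-fold above it. No length tried brought this ratio under 15.6-fold, and the highest was 30.1-fold.

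Neither Csf2 nor Csf3, the genes for GM-CSF and G-CSF, was listed in the table used here, and the same held for Il3 and Il5. Of 11 further genes of these growth factor families, 5 were listed. Il3ra, the IL-3-binding chain, stood at 1.60 log2 CPM per kilobase and Csf2rb2, the mouse chain specific to IL-3, at 0.65. Kitl, which encodes stem cell factor, was the highest of the 5 at 1.98 log2 CPM per kilobase, and Kit, its receptor, was at -0.97. Flt3, a receptor of early progenitors and dendritic cells, was the lowest at -2.18 log2 CPM per kilobase. Of these 5 genes, 0 were above the median of all genes per kilobase, beside 6 of the 9 members. Without correction for length, 1 of the 5 was above the median, beside 5 of the 9 members.

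The values of Csf2rb and Csf2rb2 are uncertain because the genes are close copies of each other. Both lie on chromosome 15, and over 2631 aligned bases of coding sequence they were 95.2% identical, with 126 differing bases. Kallisto assigns reads through short words of sequence. Of the 31-base words in the longest coding transcript of Csf2rb, 28.0% also occurred in transcripts of Csf2rb2, and within its coding part the share was 40.5%. The stretches below, each within 1 coding exon, show a part where the genes cannot be told apart and a part where they differ. They were taken from the transcript sequences of GENCODE M21, whose build is GRCm38, while the submitters' processing notes name GRCm39. The first stretch covers coding bases 928 to 1017 of both genes, at chr15:78341658-78341747 on the plus strand for Csf2rb and chr15:78291563-78291652 on the minus strand for Csf2rb2, and holds 0 differences.
Csf2rb: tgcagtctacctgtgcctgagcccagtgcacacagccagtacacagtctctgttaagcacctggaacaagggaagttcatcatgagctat
Csf2rb2: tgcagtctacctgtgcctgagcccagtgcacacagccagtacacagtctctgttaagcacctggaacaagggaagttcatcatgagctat

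The second stretch is the window of 90 bases with the most differences, 16 in number, which are set in capitals. It covers coding bases 308 to 397 of Csf2rb, at chr15:78338897-78338986 on the plus strand, and 311 to 400 of Csf2rb2, at chr15:78294345-78294434 on the minus strand.
Csf2rb: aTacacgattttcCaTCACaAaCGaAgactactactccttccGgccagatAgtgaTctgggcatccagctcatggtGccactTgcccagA
Csf2rb2: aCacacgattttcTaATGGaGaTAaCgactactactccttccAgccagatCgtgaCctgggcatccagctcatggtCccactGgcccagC

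On the level per kilobase, the difference of Csf2rb over Csf2rb2 was -0.17 log2 units with the longest coding transcript and 0.84 with the median length, so the order of the copies turned with the length used. Csf3r also shares sequence. Of the 31-base words in its coding part, 29.2% occurred in AC105061.2, a gene annotated as a processed pseudogene, which is a copy of an RNA inserted elsewhere in the genome. Over the whole longest coding transcript, 24.5% of the words of Csf3r occurred in other genes, beside 2.66% for Il34 and 1.15% for Csf2ra. Within the coding part, the share was 0% for Il34 and Csf2ra. For Csf1, Spi1, Irf8 and Adgre1 it was 0% over the whole transcript and within the coding part.

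Exons of 3 of the 9 genes overlap those of another annotated gene. Csf1r ends over Hmgxb3 on the opposite strand, across 873 bases. Of the 31-base words of its longest coding transcript, 18.0% occurred in Hmgxb3, and within the coding part of Csf1r 0% did. The sources used here do not state that strand was kept in counting, so reads from that end of Csf1r and from Hmgxb3 may not be separable. Il34 overlaps a pair of predicted genes on the opposite strand over 97 bases, and Csf2rb overlaps a microRNA gene, Mir7676-2, over 62 bases.

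Spi1 and Irf8 lay above the middle of all genes per kilobase. Spi1 stood at 3.09 log2 CPM per kilobase, at the 64.2 percentile, and Irf8 at 2.86, at the 60.4 percentile. Their authors' means were 4.12 and 4.37 log2 CPM. Spi1 was 1.17-fold above Irf8 per kilobase, and 2.74-fold with the median length. Of the 23 further myeloid transcription factor genes examined, 19 were listed. Maf was the highest, at 5.36 log2 CPM per kilobase, and Spic, a PU.1-related factor known from iron-recycling macrophages, the lowest, at -0.92. Cebpe and Gfi1, factors of granulocyte development, were not listed, nor were Gata1 and Spib. The genotype labels could not be checked with any gene here, because each value is 1 mean over all samples. Per kilobase, 12 of the 19 lay above the median of all genes, and 4 lay above Csf1r.

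Adgre1 encodes F4/80, the surface protein by which mouse macrophages are often identified. Its authors' mean was 4.71 log2 CPM, and its level was 3.01 log2 CPM per kilobase, at the 63.0 percentile. Csf1r was 1.87-fold above it per kilobase, and between 1.07-fold and 2.59-fold under the 4 lengths.

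**Figure D2:**
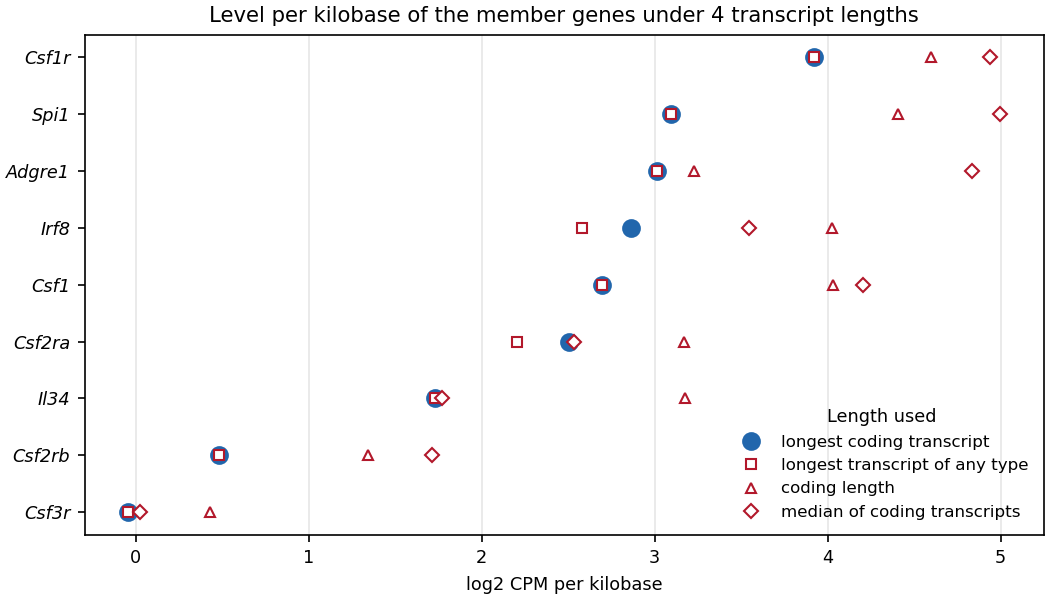
Level per kilobase (horizontal axis, log2 CPM per kilobase) of each of the 9 genes, with 1 symbol for each of the 4 transcript lengths tried. Csf2rb and Csf3r are the lowest under each of the 4 lengths, while the points of Spi1, Adgre1, Irf8 and Csf1 spread over more than the distance between neighbours.

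The order of neighbouring members was not stable. With the longest coding transcript it ran from Csf1r through Spi1, Adgre1, Irf8, Csf1, Csf2ra and Il34 to Csf2rb and Csf3r. Csf2rb was eighth and Csf3r ninth under each of the 4 lengths. Csf1 moved between the third and the fifth place, as did Adgre1, and Irf8 between the fourth and the fifth. Csf2ra at 3.17 and Il34 at 3.18 log2 CPM per kilobase of coding length exchanged places.

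The myeloid markers in the same tissue place these values. All 13 macrophage markers examined were listed, and Lyz2, which encodes lysozyme, was the highest at 8.72 log2 CPM per kilobase. Fcgr1, which encodes a receptor for IgG, had the lowest authors' mean of the 13. It stood at 1.77 log2 CPM per kilobase but was not the lowest on that scale. The median of the 13 markers was 3.30 log2 CPM per kilobase, beside 2.70 for the 9 members, and 6 of the 13 were above Csf1r. Of 9 neutrophil markers 3 were listed, S100a8 the highest at 1.57 log2 CPM per kilobase and Ngp the lowest at -3.15. Of 9 eosinophil markers only Ear2 was listed, at 0.61 log2 CPM per kilobase. This value is a mean over both genotypes, and the GATA-1 mutant mice lack eosinophils. Which cells the Ear2 RNA came from was not tested. The muscle fibre markers Mb at 10.56 and Myh4 at 12.06 log2 CPM per kilobase were above all members. The fibroblast markers Pdgfra and Col1a1 stood at 2.95 and 9.10, the endothelial markers Cdh5 and Pecam1 at 4.53 and 4.63, and the T cell markers Cd8a and Cd4 at -2.36 and 0.09 log2 CPM per kilobase. No part of these cell types in the level of any member was tested.

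**Figure D3:**
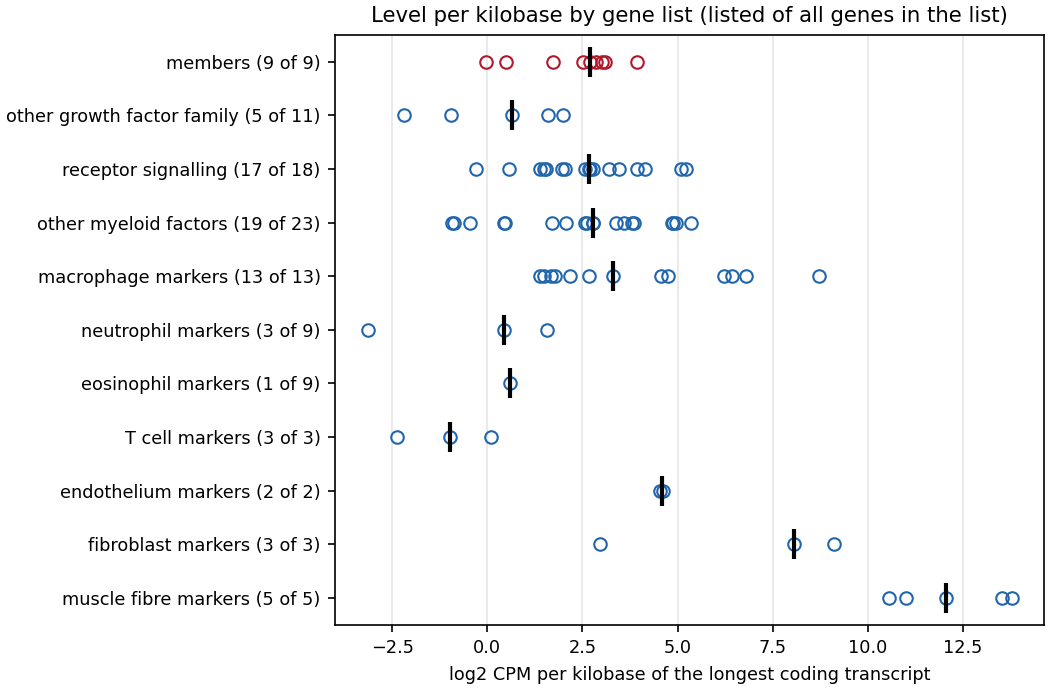
Level per kilobase of the longest coding transcript (horizontal axis, log2 CPM per kilobase) of each listed gene (circles) in the gene lists named on the left, where the numbers give how many of the list's genes were listed. The black bars are medians, which stand at 2.70 for the 9 members, 3.30 for macrophage markers, 0.45 for neutrophil markers and 12.06 for muscle fibre markers.

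Genes for proteins that act below these receptors were listed for 17 of the 18 examined. Stat5b, a transcription factor activated by GM-CSF and related cytokines, stood at 5.08 log2 CPM per kilobase, above Csf1r, and Socs1, a feedback inhibitor of cytokine signalling, was the lowest of them at -0.30. Of the 17 genes, 10 lay above the median of all genes per kilobase and 4 above Csf1r.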

How the data were processed

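RNA with a poly(A) tail was sequenced from injured quadriceps of 3 WT and 3 GATA-1 mutant mice. The authors used kallisto for pseudoalignment and gave transcripts their genes. They describe a filter of a CPM over 1 in 3 or more samples, normalization by TMM on the log scale and a limma fit. The lowest listed mean was -4.08 log2 CPM, and how so low a mean passed that filter was not tested. A gene that is not listed is therefore not shown to be absent from the tissue. The genome builds GRCm39 and mm39 are named in the submitters' processing notes. The index and its release are not given in the sources used here. The deposited log2 values used are the mean log2 CPM of each gene over the samples. The table's other columns hold the authors' own comparison of the genotypes (a fold change, t, p-values and log odds) and were not used. No column holds values per mouse, so the limma fit planned on such values was not run. The depth of each sample is unknown.

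Of 14015 rows with a symbol, 486 were matched through an older symbol in RefSeq (GRCm38.p6), and 99.5% had a transcript length in GENCODE M21 (GRCm38). The level per kilobase is the mean log2 CPM minus log2 of the length in kilobases. A percentile is the percent of genes with a lower level. Words of 31 bases were compared on both strands with transcripts of all other genes, and coding sequences were aligned with Biopython 1.88. Python 3.11.15, pandas 2.3.3 and numpy 2.4.6 were used, and the functions were tested on made-up data. The genes named are the 9 members, the listed genes of the growth factor family and IL-34 receptor lists, and of each other list the genes with the highest and the lowest mean log2 CPM. Genes of the lists that the table does not list, and genes that overlap or share sequence with a member, are named outside this rule. The members and lists were chosen with earlier results of these data known. Other lengths and other backgrounds were tried.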

Additional observations from a re-analysis of the deposited data

How the results depend on the processing

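No paired analysis was possible because the column used gives 1 mean over all samples for each gene, and the labels do not state that mice of the same number belong together. For the first reason, leaving out each mouse, a stricter filter on low values and another pseudocount were not run. The median level of the 9 genes, 2.70 log2 CPM per kilobase of the longest coding transcript, became 2.58 with the longest transcript of any type, 3.23 with the coding length and 3.54 with the median length of coding transcripts. The longest transcript of any type lowered the values of 2 genes and changed 7 by less than the printed precision, while the coding length raised all 9 by 0.21 to 1.44 log2 units and the median length raised all 9 by 0.03 to 1.90. The median percentile of the 9 genes by mean log2 CPM was 52.0 among all genes with a symbol, 51.2 among protein-coding genes only, and 47.5 among genes with a mean of at least 0 log2 CPM. These shifts have no replicate error to be set against. The effective lengths that kallisto used were not analysed here, so no length tried is known to be the right one.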
